A study of Mus musculus with 6 samples.

Results

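Toll-like and NOD-like receptor signalling genes were followed in the distal colon of ChREBP knockout and wild-type mice. The genes were picked by a rule on names, which was set with earlier results of these data known. It took numbered Toll-like receptors, numbered NLRC, NLRP and NLRX genes and numbered interleukin-1 receptor-associated kinases. Further receptors, adaptors and inhibitors were given by symbol. The rule found 51 of the 19844 genes in the table, and 36 of them averaged at least 1 FPKM (fragments scaled by transcript length and library size) over the 6 libraries.

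Toll-like receptors sit at the cell surface or in endosomes and bind microbial lipids, proteins and nucleic acids. They signal through the adaptor Myd88 and IRAK kinases, or through the adaptor Ticam1, to Traf6 and Map3k7. Both routes lead to NF-kB and interferon regulatory factors. NOD-like receptors sense microbial products in the cytosol, where Nod1 and Nod2 signal through Ripk2 and others assemble inflammasomes that activate caspase-1. In the colon these pathways are known for guarding a lining that faces dense bacteria.

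The libraries came from 3 ChREBP knockout mice and 3 wild-type mice, all of strain C57BL6, labelled female and taken on day 17 of AOM/DSS. AOM is azoxymethane, a colon carcinogen, and DSS is dextran sulfate sodium, which injures the colon lining. All 6 mice received both agents, and the design holds no untreated colon. The labels give neither the age of the mice nor the part of the gene deleted, nor whether the deletion was limited to some cells. Each library is 1 bulk colon sample, so fewer cells of a type and less RNA per cell cannot be told apart in any value below.

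Several facts of the series bear on the values. Mlxipl, which encodes ChREBP, read 3.40, 5.66 and 5.04 FPKM in knockout replicates 1 to 3 and 5.84, 7.49 and 7.27 FPKM in wild-type replicates 1 to 3. Its transcript was thus lower in every knockout library than in any wild-type library but still present, with a log2 fold change of -0.48 (SE 0.18), a limma unadjusted p of 0.0258 and adjusted p of 0.9995. Against the female label, the Y-linked gene Ddx3y read between 9.51 and 12.11 FPKM and Xist between 0.02 and 0.04 FPKM in all 6 libraries. The estimated depth was between 17575000 and 18400000 reads per library. All 10 colon epithelium markers were detected, with sums of 7186 to 7692 FPKM in knockout and 6792 to 7690 FPKM in wild type. Each log2 fold change sets knockout over wild type after 1 was added to every FPKM value, so for a low gene it is smaller than the change in FPKM itself. Group values are means ± SD with n = 3 mice each.

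No member passed the test of genotype. Of 51 members, 37 reached 1 FPKM in at least 3 libraries and were tested. Limma with Benjamini-Hochberg adjustment over all 13247 tested genes called 0 of the 37 at an adjusted p under 0.05. The background was 0.0151% of all tested genes, which is 2 genes, neither of them a member. The adjusted p was 0.9995 for every tested member. At an unadjusted p under 0.05, limma gave 1 of 37 members, Tlr4, against 3.4% of all tested genes. That count was 0 without wild-type replicate 1, where Tlr4 was at an unadjusted p of 0.059, and 5 without knockout replicate 2. Fold changes were positive in 18 members and negative in 19, with a median of -0.0048, against 6986 positive and 6261 negative and a median of 0.0093 over all tested genes. The log2 fold changes ran from -0.25 for Tlr12 to 0.40 for Nlrx1. For all 37 the 95% interval lay within 2-fold in either direction on that scale, which for the members near 1 FPKM still allows a larger fold in FPKM itself. By role, the counts of positive and negative fold changes were 4 and 2 for the class headed cell-surface receptors with Ly96. That class also held Tlr12, an endosomal receptor with a negative fold change, so its counts are not of surface receptors alone. The counts were 1 and 3 for the other endosomal receptors and 4 and 4 for adaptors and kinases. They were 2 and 1 for inhibitors, 0 and 3 for the NOD receptors with Ripk2, 4 and 4 for the NLRC, NLRX, NAIP and Aim2 sensors, and 3 and 2 for NLRP genes. The role medians lay between -0.11 (endosomal receptors without Tlr12) and 0.09 (the cell-surface class with Tlr12, and NLRP genes).

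**Figure D1:**
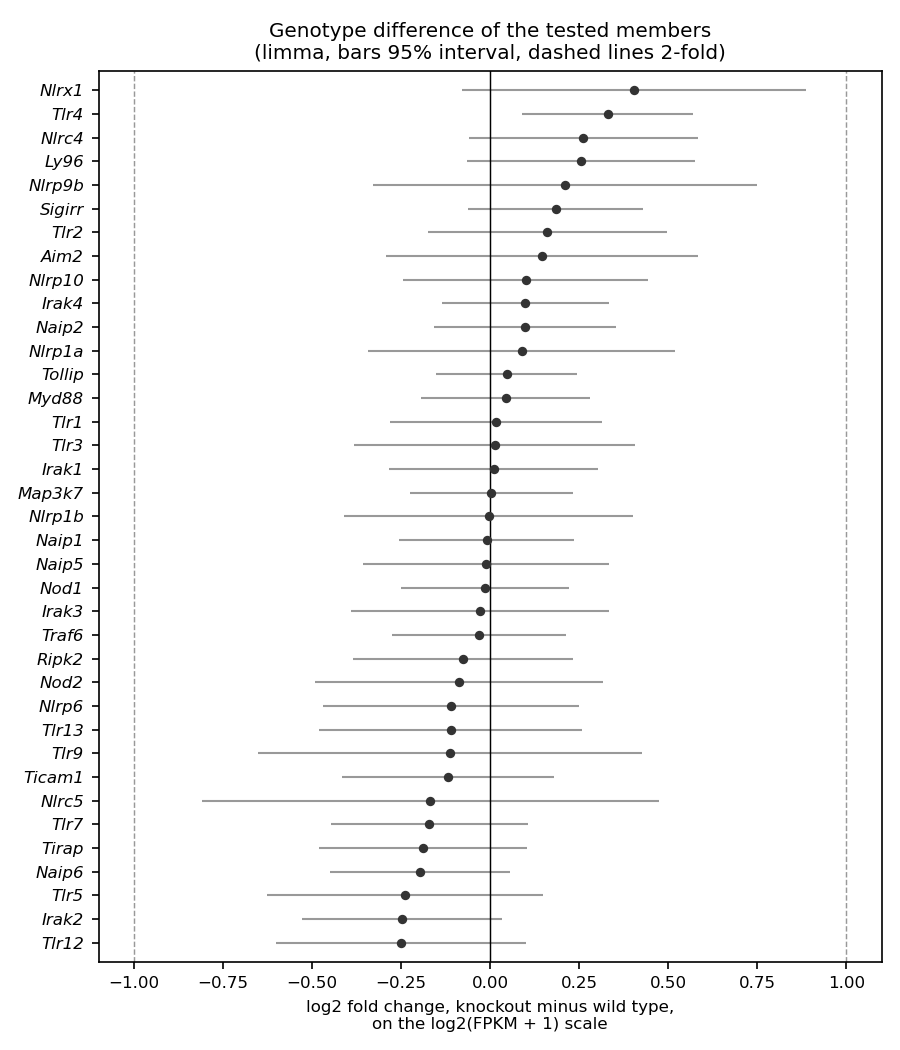
Log2 fold change of each of the 37 tested members, knockout over wild type after adding 1 to FPKM, with limma 95% intervals. The points lie between -0.25 (Tlr12) and 0.40 (Nlrx1), and all intervals stay inside the dashed 2-fold lines.

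Among the cell-surface receptors, Tlr4, the lipopolysaccharide receptor, was the member of smallest p. Tlr4 (NCBI gene 21898, chromosome 4) read 5.97, 5.98 and 6.16 FPKM in knockout replicates 1 to 3, against 4.31, 4.97 and 4.54 FPKM in wild-type replicates 1 to 3. The 3 knockout libraries lay close together and above every wild-type library. Its log2 fold change was 0.33 (SE 0.10, 95% interval 0.09 to 0.57), with a limma unadjusted p of 0.0137 and an adjusted p of 0.9995. Tlr4 was the sole tested member whose knockout values all lay above the wild-type values, an arrangement seen in 4.53% of all tested genes. The summed FPKM of 13 macrophage and monocyte markers was 304.67, 549.76 and 329.28 in knockout and 364.51, 408.44 and 514.77 in wild type, and the part of these cells in the Tlr4 values was not tested. About 318 to 455 reads per library lie behind the Tlr4 values.

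Ly96, the lipopolysaccharide-binding partner of Tlr4, leaned the same way without separating the groups. It read 8.96, 12.11 and 11.17 FPKM in knockout replicates 1 to 3 and 7.79, 8.82 and 9.84 FPKM in wild-type replicates 1 to 3 (log2 fold change 0.25, SE 0.14). Knockout replicate 1 fell inside the wild-type range. Tlr2, which recognises bacterial lipopeptides, read 6.85, 5.55 and 4.79 FPKM in knockout and 5.11, 4.37 and 5.5 FPKM in wild type, with broad overlap. The ratio of Ly96 to Tlr4 was between 1.5 and 2.03 in knockout and between 1.77 and 2.17 in wild type.

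Tlr1 was the most abundant Toll-like receptor, and its genomic neighbour Tlr6 was among the lowest. Both pair with Tlr2 to recognise lipopeptides, and both lie on chromosome 5. Tlr1 read 35.63, 47.94 and 38.05 FPKM in knockout replicates 1 to 3 and 40.09, 43.01 and 36.41 FPKM in wild-type replicates 1 to 3. Tlr6 read 0.49, 0.71 and 0.40 FPKM in knockout and 0.61, 0.36 and 0.62 FPKM in wild type. Per length, Tlr1 stood 67.5 to 95.1 times above Tlr6 in knockout and 58.7 to 119 times in wild type, so neither receptor's level separated the genotypes. Of the 50-base words in the Tlr1 transcripts, 14.8% also occur in Tlr6, so the split of reads between the pair is uncertain.

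The flagellin receptor Tlr5 and the profilin receptor Tlr12 were low and had negative fold changes. Tlr5 read 0.83, 1.31 and 1.55 FPKM in knockout replicates 1 to 3 and 1.29, 1.65 and 1.92 FPKM in wild-type replicates 1 to 3 (log2 fold change -0.24, SE 0.17). Tlr12 read 1.39, 1.88 and 1.08 FPKM in knockout and 2.07, 1.90 and 1.71 FPKM in wild type (log2 fold change -0.25, SE 0.15). In each gene the lowest library was a knockout and the highest a wild type, but the ranges overlapped. Single libraries weighed on both: the log2 fold change was -0.14 for Tlr12 without knockout replicate 3, and -0.10 for Tlr5 without knockout replicate 1 or -0.16 without wild-type replicate 3. Tlr11, a further profilin receptor, lay between 0.07 and 0.57 FPKM and was not tested.

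**Figure D2:**
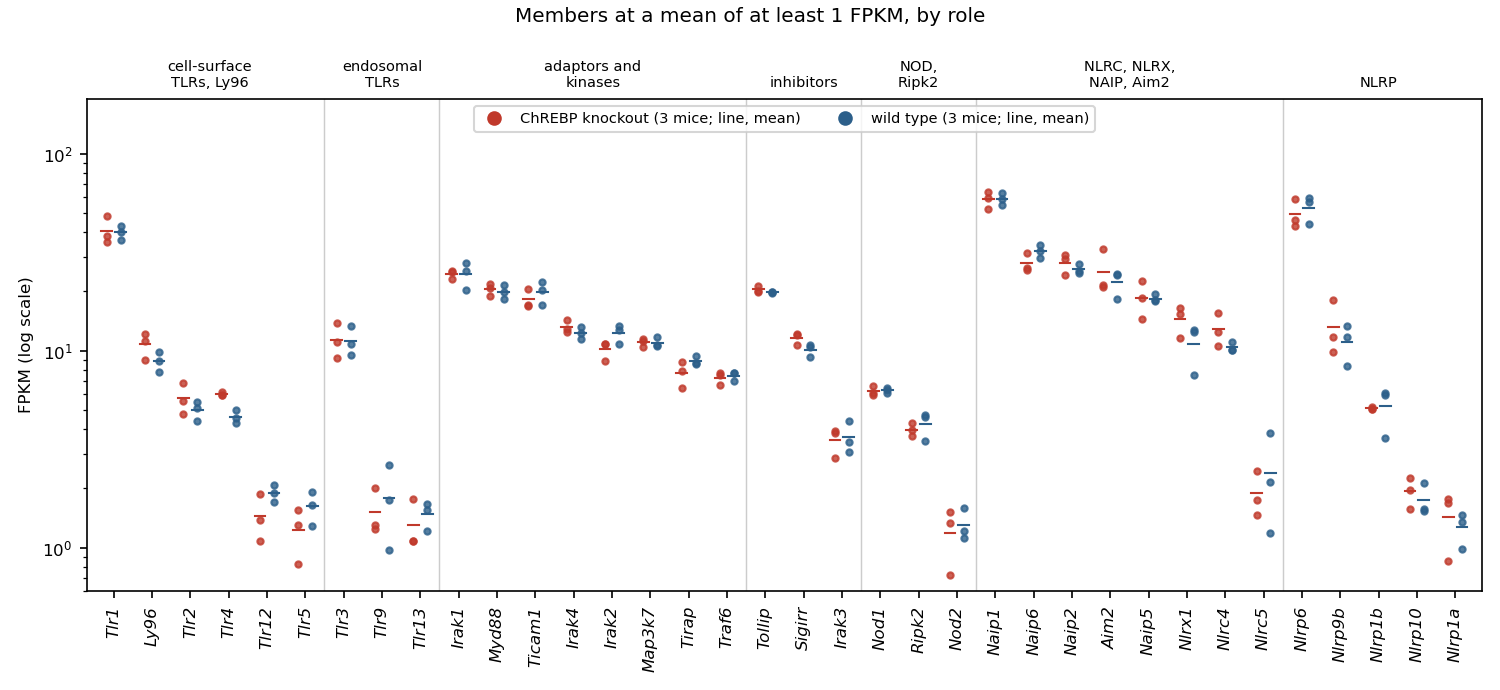
FPKM on a log axis for the 36 members with a mean of at least 1 FPKM, grouped by role, with 1 point per mouse and a line at each group mean, knockout left of wild type. Naip1, Nlrp6 and Tlr1 are the highest, and Tlr4 is the sole gene drawn whose knockout points all lie above the wild-type points. The cell-surface group as drawn also holds Tlr12, an endosomal receptor.

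The endosomal receptors that sense nucleic acids were led by Tlr3, the receptor for double-stranded RNA. Tlr3 read 13.87, 11.09 and 9.18 FPKM in knockout replicates 1 to 3 and 10.85, 13.34 and 9.49 FPKM in wild-type replicates 1 to 3, with the groups interleaved. Tlr7, a single-stranded RNA receptor on the X chromosome, read 0.84, 0.95 and 0.85 FPKM in knockout and 1.02, 1.16 and 1.17 FPKM in wild type. All 3 knockout values lay below the wild-type values, as in 4.14% of all tested genes. Tlr7 reached the 1 FPKM filter through its wild-type libraries alone, so its place among the tested members already required a difference and lends it no support. Its log2 fold change was -0.17 (SE 0.12) with a limma adjusted p of 0.9995.

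Tlr9, the receptor for unmethylated CpG DNA, varied more between mice than between genotypes. It read 2.0, 1.30 and 1.25 FPKM in knockout replicates 1 to 3 and 1.75, 2.63 and 0.97 FPKM in wild-type replicates 1 to 3. Wild type held both the highest and the lowest library. The sum of 6 B cell markers, all detected, was 82.23, 68.82 and 57.01 FPKM in knockout and 84.82, 127.12 and 23.27 FPKM in wild type. Tlr9 and the B cell sum were thus both highest in wild-type replicate 2 and lowest in wild-type replicate 3. The part of B cells in the Tlr9 values was not tested.

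Tlr8 and Tlr13, receptors of single-stranded and ribosomal RNA on the X chromosome, followed another order of libraries. Tlr8 read 0.53, 0.90 and 0.34 FPKM in knockout and 0.60, 0.71 and 1.2 FPKM in wild type, and it was too low to be tested. Tlr13 read 1.08, 1.76 and 1.08 FPKM in knockout and 1.21, 1.55 and 1.67 FPKM in wild type. Knockout replicate 2 and wild-type replicate 3 were the highest for both genes, as they were for the macrophage marker sum given with Tlr4. Without Lyz2, its most abundant gene, that sum was 182.43, 338.11 and 196.92 FPKM in knockout and 232.35, 234.69 and 322.44 FPKM in wild type, and the same pair of libraries led. The part of macrophages in these values was not tested. These genes were singled out after their values were seen.

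**Figure D3:**
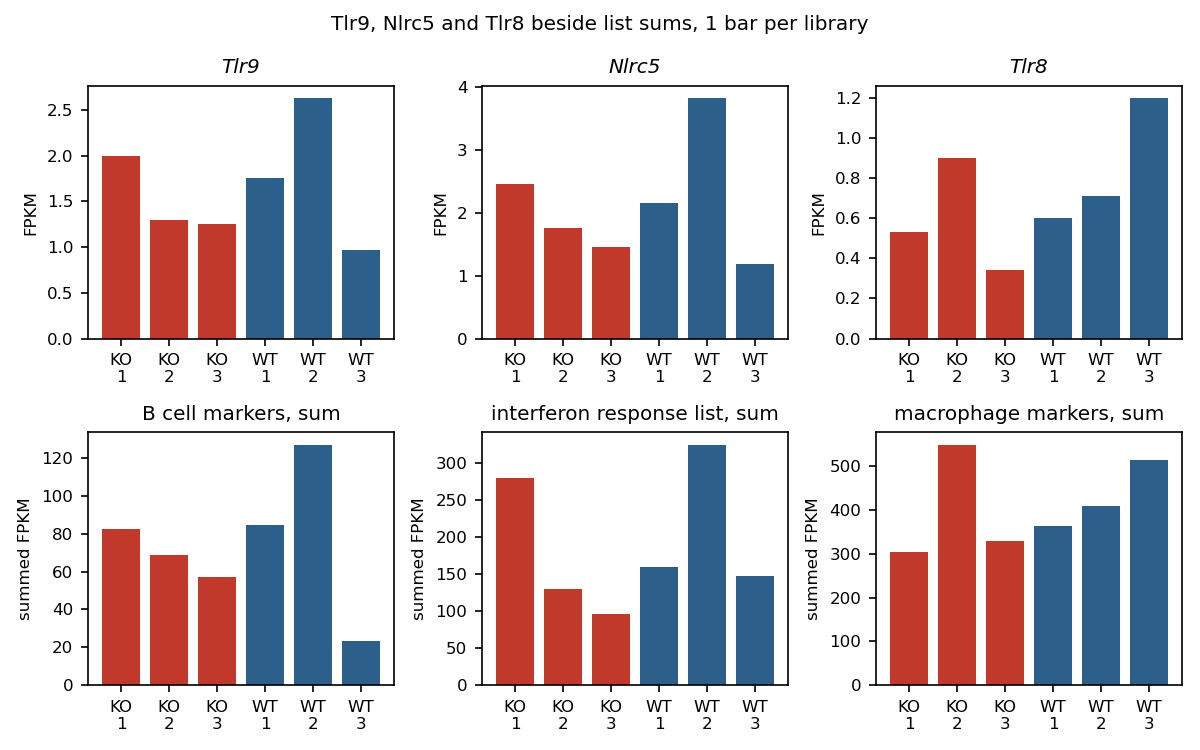
Bars give FPKM of Tlr9, Nlrc5 and Tlr8 (top) and summed FPKM of the B cell, interferon response and macrophage lists (bottom), 1 bar per library, knockout left of wild type. Wild-type replicate 2 is highest for Tlr9 (2.63), Nlrc5 (3.82), B cell markers and the interferon list, whereas Tlr8 and the macrophage sum are high in knockout replicate 2 and wild-type replicate 3.

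The shared adaptors and kinases Myd88, Ticam1, Irak1, Irak4, Traf6 and Map3k7 overlapped between genotypes. The ratio of highest to lowest library was 1.14 to 1.24 for Map3k7, Traf6, Myd88 and Irak4. It was 1.32 for Ticam1 and 1.37 for Irak1, against a median of 1.41 over all tested genes. Myd88, the adaptor of nearly all Toll-like receptors, was at 20.5 ± 1.45 FPKM in knockout and 19.9 ± 1.61 FPKM in wild type. Ticam1, the TRIF adaptor of Tlr3 and Tlr4, was at 18.2 ± 2.10 FPKM in knockout and 19.9 ± 2.65 FPKM in wild type, so Myd88 and Ticam1 were at nearly equal levels per length. Irak1, the most abundant kinase, read 25.17, 22.97 and 25.50 FPKM in knockout replicates 1 to 3 and 25.48, 27.87 and 20.31 FPKM in wild-type replicates 1 to 3. Irak4, which starts the kinase cascade, was at 13.2 ± 0.920 FPKM in knockout and 12.3 ± 0.825 FPKM in wild type. The E3 ligase gene Traf6 was at 7.30 ± 0.559 and 7.47 ± 0.410 FPKM in knockout and wild type. Map3k7, the TAK1 kinase gene, was at 11.01 ± 0.577 FPKM in knockout and 11.00 ± 0.694 FPKM in wild type, a log2 fold change of 0.0025 (95% interval -0.23 to 0.23) whose sign is not stable under rescaling.

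Irak2 and Tirap had the most negative fold changes of this class. Irak2, a kinase of the sustained Myd88 response, read 10.77, 10.80 and 8.90 FPKM in knockout replicates 1 to 3 and 12.69, 13.27 and 10.79 FPKM in wild-type replicates 1 to 3. The groups all but separated, with the highest knockout at 10.80 and the lowest wild type at 10.79 FPKM. The log2 fold change was -0.25 (SE 0.12, 95% interval -0.53 to 0.03) with a limma adjusted p of 0.9995. Tirap, the bridge between Tlr2 or Tlr4 and Myd88, read 8.80, 6.44 and 7.86 FPKM in knockout and 8.67, 8.51 and 9.40 FPKM in wild type. Ticam2, the bridge between Tlr4 and Ticam1, read 0.67, 0.70 and 0.61 FPKM in knockout and 0.76, 0.96 and 1.35 FPKM in wild type. Its groups did not overlap, with knockout below wild type as in 4.14% of all tested genes. Ticam2 itself did not reach the filter and was not tested, so that share covers other genes. About 46 to 101 reads per library lie behind its values, and 19.0% of its transcript's 50-base words also occur in the Tmed7 gene.

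Of the inhibitors, Tollip was the steadiest member of all. It read 20.14, 19.75 and 21.40 FPKM in knockout replicates 1 to 3 and 19.67, 19.84 and 19.74 FPKM in wild-type replicates 1 to 3, and its highest library was 1.09 times its lowest. Sigirr, a decoy-like inhibitor of interleukin-1 and Toll-like receptor signalling, read 10.64, 12.07 and 12.17 FPKM in knockout and 9.26, 10.71 and 10.39 FPKM in wild type. A single knockout library fell within the wild-type range, and the log2 fold change was 0.18 (SE 0.11). Irak3, the inhibitory kinase also called IRAK-M, was at 3.53 ± 0.587 FPKM in knockout and 3.63 ± 0.693 FPKM in wild type.

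ChREBP is known to bind E-box letters, mostly as a spaced pair, so the members' promoters were searched for them. RefSeq promoter windows of the GRCm38.p6 build, reaching 250 bases before to 50 bases after a gene's start, were matched for 40 of the 51 members. The letters CACGTG, which read the same on both strands, occurred in 3 of those 40 (7.5%), against 8.09% of 27025 genes with a window. A pair of exact CACGTG with 5 bases of any kind between them occurred in 0 of the 27025. Since no gene at all matched, that search cannot tell the members from other genes. Spaced pairs with other letters were not searched, so whether members hold such a pair was not tested. The NF-kB motif, searched on both strands, occurred in 5 of 40 (12.5%: Map3k7, Naip5, Nlrp3, Tlr2 and Tlr3), against 5.14% of all genes. A match is a description of letters and not a binding site. The 3 promoters with CACGTG are shown because they hold the letters ChREBP is known to bind, with those letters in capitals:
Tlr1 (chr5:64932650-64932949, minus strand): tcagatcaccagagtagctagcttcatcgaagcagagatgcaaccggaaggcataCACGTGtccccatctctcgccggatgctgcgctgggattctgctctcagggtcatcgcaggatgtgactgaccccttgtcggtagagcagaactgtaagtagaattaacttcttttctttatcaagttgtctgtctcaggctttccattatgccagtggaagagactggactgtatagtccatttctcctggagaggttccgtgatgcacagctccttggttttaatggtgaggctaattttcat
Ticam1 (chr17:56276718-56277017, minus strand): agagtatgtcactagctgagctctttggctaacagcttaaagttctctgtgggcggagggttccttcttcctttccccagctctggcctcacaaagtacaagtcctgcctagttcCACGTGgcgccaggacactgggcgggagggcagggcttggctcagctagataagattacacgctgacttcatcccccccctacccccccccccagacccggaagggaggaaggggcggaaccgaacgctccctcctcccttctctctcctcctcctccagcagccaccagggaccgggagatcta
Irak3 (chr10:120201548-120201847, minus strand): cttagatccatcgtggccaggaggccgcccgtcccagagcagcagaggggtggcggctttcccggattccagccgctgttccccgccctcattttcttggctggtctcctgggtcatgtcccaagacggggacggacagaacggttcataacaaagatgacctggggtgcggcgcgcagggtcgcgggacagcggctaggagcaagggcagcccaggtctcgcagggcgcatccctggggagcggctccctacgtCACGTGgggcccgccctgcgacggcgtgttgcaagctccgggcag
The capitals begin at position -195 in Tlr1, -135 in Ticam1 and 6 in Irak3, where 1 is the first base of the gene and -1 the base before it. Tlr1 and Irak3 each have 2 windows, and the one holding the letters is shown. The log2 fold changes of these genes were 0.02 (SE 0.13), -0.12 (SE 0.13) and -0.03 (SE 0.16), given in the order of the sequences, and none was called. The sign for Tlr1 changes when libraries are rescaled to the same total.

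The NOD receptors and their kinase overlapped between genotypes. Nod1, which recognises a peptidoglycan fragment of mostly Gram-negative bacteria, read 5.94, 6.65 and 6.06 FPKM in knockout replicates 1 to 3 and 6.29, 6.06 and 6.5 FPKM in wild-type replicates 1 to 3. Nod2, the muramyl dipeptide receptor linked to Crohn's disease in humans, was at 1.19 ± 0.410 FPKM in knockout and 1.31 ± 0.248 FPKM in wild type. Ripk2, the kinase both receptors use, was at 3.97 ± 0.295 FPKM in knockout and 4.27 ± 0.682 FPKM in wild type. Nod1 exceeded Nod2 by 4.4 to 8.30 times in knockout and 4.09 to 5.62 times in wild type.

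NAIP genes were the most abundant NOD-like receptors beside Nlrp6. NAIP proteins bind bacterial flagellin or secretion-system proteins in the cytosol and then activate Nlrc4. Naip1, the sensor of the secretion needle protein, read 63.66, 59.74 and 52.15 FPKM in knockout replicates 1 to 3 and 54.76, 58.64 and 63.11 FPKM in wild-type replicates 1 to 3. It exceeded 90.1% of all tested genes in mean level and was the highest of all members. Naip2, the sensor of the inner rod protein, was at 27.9 ± 3.24 FPKM in knockout and 25.9 ± 1.43 FPKM in wild type. The flagellin sensor Naip5 was at 18.5 ± 3.95 FPKM in knockout and 18.4 ± 0.850 FPKM in wild type. Naip6, the other flagellin sensor, read 25.71, 31.29 and 26.35 FPKM in knockout and 29.61, 34.32 and 31.94 FPKM in wild type (log2 fold change -0.20, SE 0.11), where knockout replicate 2 lay within the wild-type range.

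Levels of single NAIP genes are uncertain because their transcripts share sequence. All 4 lie on chromosome 13, and the coding sequences of Naip5 and Naip6, each 4212 bases in GENCODE M21, were 96.96% identical. Of the 50-base words in the transcripts, 36.8% in Naip5, 33.1% in Naip1, 21.7% in Naip6 and 19.4% in Naip2 also occur in another gene. The authors' counting could therefore split reads among them. The 90 aligned coding bases in which Naip5 and Naip6 differ most are shown, with the 11 differing bases in capitals. They give the upper end of what 90 coding bases can tell apart, not the usual number of differences:
Naip5 (coding bases 37 to 126): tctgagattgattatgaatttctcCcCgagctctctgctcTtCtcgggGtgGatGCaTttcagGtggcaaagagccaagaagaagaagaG
Naip6 (coding bases 37 to 126): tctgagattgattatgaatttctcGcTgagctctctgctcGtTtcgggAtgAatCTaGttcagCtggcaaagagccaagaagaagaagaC

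Nlrc4, the partner of the NAIP sensors, and Nlrx1, a mitochondrial family member, had the larger positive fold changes among the NLR genes. Nlrc4 read 15.46, 10.61 and 12.36 FPKM in knockout replicates 1 to 3 and 11.03, 10.08 and 10.13 FPKM in wild-type replicates 1 to 3 (log2 fold change 0.26, SE 0.14). Knockout replicate 1 stood highest, and without it the log2 fold change was 0.13. Knockout replicate 2 lay within the wild-type range. Nlrx1 read 16.51, 11.58 and 15.33 FPKM in knockout and 12.68, 12.38 and 7.48 FPKM in wild type (log2 fold change 0.40, SE 0.21). Its difference rests in part on wild-type replicate 3, the lowest library, without which the log2 fold change was 0.18. Naip1 exceeded Nlrc4 by 4.12 to 5.63 times in knockout and 4.96 to 6.23 times in wild type.

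Nlrc5, a transactivator of MHC class I genes that is induced by interferon, varied most among the tested members. It read 2.46, 1.75 and 1.46 FPKM in knockout replicates 1 to 3 and 2.15, 3.82 and 1.19 FPKM in wild-type replicates 1 to 3. Its highest library was 3.21 times its lowest, against a median of 1.48 times over the tested members and 1.41 times over all tested genes. The libraries fell in the same order for Nlrc5 as for Tlr9. The sum of the 10-gene type I interferon response list was 279.19, 130.15 and 95.32 FPKM in knockout and 159.56, 324.99 and 147.85 FPKM in wild type, and it shared the top 3 libraries with Nlrc5. The part of interferon or of B cells in the Nlrc5 values was not tested. Nlrc3, an inhibitory family member, lay between 0.33 and 0.78 FPKM and was not tested.

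Aim2, a sensor of cytosolic DNA, and Nlrp9b, a sensor of viral RNA in mouse gut epithelium, were both highest in knockout replicate 2 and lowest in wild-type replicate 1. Aim2 was at 25.1 ± 6.73 FPKM in knockout, with 32.91 in replicate 2, and at 22.3 ± 3.44 FPKM in wild type, with 18.37 in replicate 1. Nlrp9b was at 13.2 ± 4.34 FPKM in knockout, with 18.08 in replicate 2, and at 11.1 ± 2.51 FPKM in wild type, with 8.37 in replicate 1. Without knockout replicate 2 the log2 fold changes were -0.06 for Aim2 and -0.03 for Nlrp9b, so the sign of each positive difference rests on that library. Without wild-type replicate 1 they were 0.016 for Aim2 and 0.035 for Nlrp9b. Knockout replicate 2 was the highest library for 9 of the 37 tested members, against 25.8% of all tested genes.

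Nlrp6, an inflammasome sensor of intestinal epithelium, stood far above Nlrp3, the best-known inflammasome sensor of myeloid cells. Nlrp6 read 43.07, 58.77 and 46.09 FPKM in knockout replicates 1 to 3 and 56.77, 59.18 and 43.78 FPKM in wild-type replicates 1 to 3. The groups covered nearly the same range (log2 fold change -0.11, 95% interval -0.47 to 0.25), and leaving out 1 library gave from -0.24 (without wild-type replicate 3) to -0.020 (without knockout replicate 1). Nlrp3 lay between 0.25 and 0.37 FPKM in knockout and between 0.26 and 0.38 FPKM in wild type, about 18 to 27 reads per library, and was not tested. Per length, Nlrp6 exceeded Nlrp3 by 135 to 184 times in knockout and 137 to 218 times in wild type.

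The other NLRP genes were moderate or close to 0. Nlrp1b, a sensor of bacterial proteases in mice, was at 5.09 ± 0.0794 FPKM in knockout and 5.23 ± 1.40 FPKM in wild type, where replicate 3 read 3.61. Its relative Nlrp1a was at 1.44 ± 0.501 FPKM in knockout and 1.27 ± 0.255 FPKM in wild type. Nlrp10, a family member without the leucine-rich repeats, was at 1.94 ± 0.351 FPKM in knockout and 1.74 ± 0.330 FPKM in wild type. The pseudogene Nlrp1c-ps lay between 0.08 and 0.22 FPKM. The remaining Nlrp2, Nlrp4c, Nlrp4f, Nlrp4g, Nlrp5, Nlrp5-ps and Nlrp12 each averaged below 0.1 FPKM and reached at most 0.16 FPKM, which is a few reads at this depth. Differences in these genes were not detectable at this depth.

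**Figure D4:**
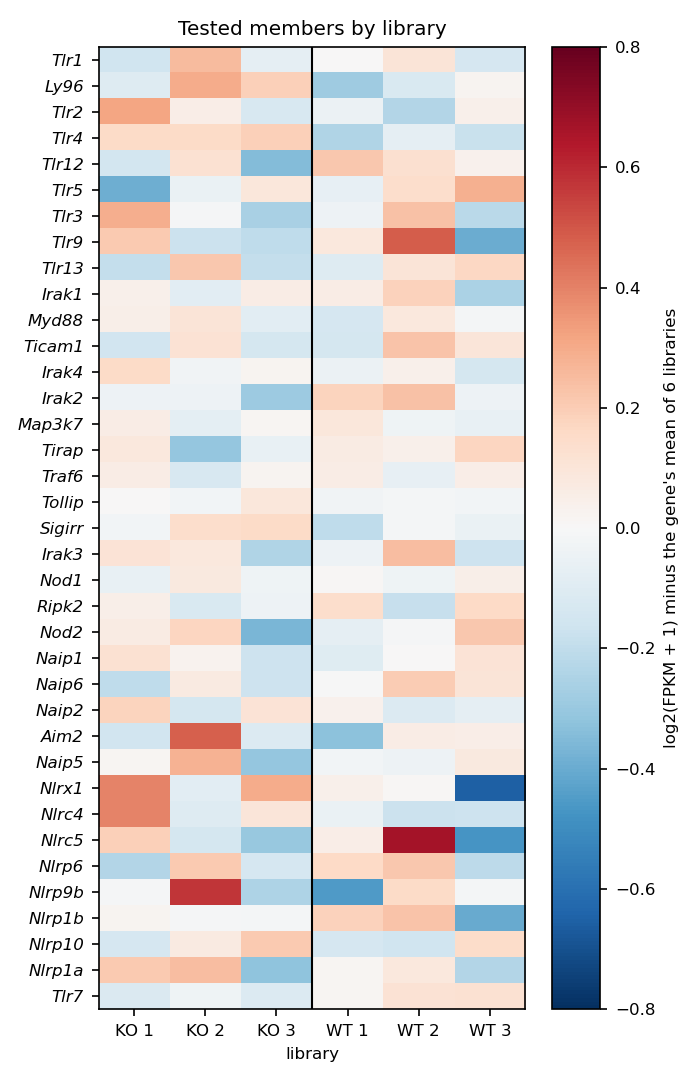
Deviation of log2(FPKM + 1) from each gene's mean of the 6 libraries for the 37 tested members, knockout columns left of wild-type columns. Tlr4 is above its mean in all 3 knockout libraries, Nlrc5 and Tlr9 peak in wild-type replicate 2, and Aim2 and Nlrp9b peak in knockout replicate 2.

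Members differed in how tightly they were held across the 6 mice. After Tollip, the smallest ratios of highest to lowest library were those of Nod1 (1.12), Map3k7 (1.14), Traf6 (1.16) and Myd88 (1.19). The widest among tested members after Nlrc5 were Tlr9 (2.71), Tlr5 (2.31), Nlrx1 (2.21), Nod2 (2.18) and Nlrp9b (2.16). The widest members named are all Toll-like or NOD-like receptor genes, from several role classes. Of the 37 tested members, however, 8 were adaptors or kinases and 3 were inhibitors. Nlrc5, Tlr9, Tlr5 and Nod2 averaged between 1.25 and 2.14 FPKM, though Nlrx1 (12.66) and Nlrp9b (12.16) were higher. The tightest are adaptors, kinases and an inhibitor, apart from the receptor Nod1, and averaged between 6.25 and 20.2 FPKM. Whether role or level goes with the spread was not tested. Between these ends the sensor Naip1 (1.22) varied less than the kinase Irak2 (1.49). Tlr5 rests on about 49 to 109 reads per library and Nod2 on about 62 to 131.

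Partners, regulators and targets of these pathways were taken from 6 lists of 85 genes in all, of which 77 were tested. Limma called 0 of the 77, against 0.0151% of all tested genes, with 5 at an unadjusted p under 0.05, against 3.4% of all tested genes at that threshold. Fold changes were positive in 46 and negative in 31, with a median of 0.06, against 0.0093 over all tested genes. Groups did not overlap in 9 of the 77, against 8.67% of all tested genes. Every tested gene named below had a limma adjusted p of 0.9995.

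Feedback inhibitors held the gene of smallest p. Of 17 tested in that list, 13 had a positive fold change and 4 a negative one (median 0.17). The negative ones include Rnf31 (-0.25) and Peli1 (-0.034), which the list held although they are not established feedback inhibitors. The counts are therefore not of inhibitors alone. Il1rn, the interleukin-1 receptor antagonist, read 59.63, 59.68 and 54.13 FPKM in knockout replicates 1 to 3 and 46.81, 48.83 and 44.22 FPKM in wild-type replicates 1 to 3 (log2 fold change 0.30, SE 0.09). Nfkbib, an inhibitor of NF-kB, read 24.24, 25.96 and 24.33 FPKM in knockout and 20.84, 20.61 and 20.94 FPKM in wild type (log2 fold change 0.25, SE 0.08). In both genes all knockout libraries lay above all wild-type libraries, as in 4.53% of all tested genes. Il1rn and Nfkbib were named for their small p within the list, which favours separated groups. Nfkbia, the rapidly induced inhibitor of NF-kB, was at 60.1 ± 15.9 FPKM in knockout and 44.1 ± 6.05 FPKM in wild type, with replicate 2 of the knockout highest at 77.87.

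The NF-kB kinases and factors were balanced, with 8 positive and 9 negative fold changes among 17 tested. Chuk, the IKK-alpha kinase gene, read 17.55, 14.60 and 16.12 FPKM in knockout and 20, 19.42 and 19.22 FPKM in wild type (log2 fold change -0.27, SE 0.10). Ikbkb, the IKK-beta kinase gene, read 18.69, 19.09 and 17.10 FPKM in knockout and 15.91, 16.73 and 15.86 FPKM in wild type (log2 fold change 0.17, SE 0.09). Neither catalytic subunit's groups overlapped, with knockout below wild type for Chuk and above it for Ikbkb, and neither was called. These arrangements were seen in 4.14% and 4.53% of all tested genes. Both genes were named for their small p within the list, which favours separated groups. Tab1, a partner of Map3k7, was at 9.52 ± 2.05 FPKM in knockout and 7.78 ± 0.355 FPKM in wild type.

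Inflammasome and NOD partners had 11 positive and 2 negative fold changes among 13 tested (median 0.11). Casp4, the caspase that senses cytosolic lipopolysaccharide, was at 22.9 ± 0.681 FPKM in knockout and 18.6 ± 3.48 FPKM in wild type. Birc3, a ubiquitin ligase of the NOD pathway, was at 31.0 ± 3.94 and 26.0 ± 1.29 FPKM in knockout and wild type. Gsdmd, the pore-forming gasdermin cut by inflammatory caspases, was at 69.6 ± 2.84 FPKM in knockout and 63.9 ± 2.97 FPKM in wild type. Co-receptors and chaperones of Toll-like receptors had 5 positive and 4 negative fold changes among 9 tested. Lbp, which delivers lipopolysaccharide, was at 3.25 ± 0.706 FPKM in knockout and 4.25 ± 1.18 FPKM in wild type. The negative ones include Lrrc32, which the list held although it is not an established co-receptor or chaperone of Toll-like receptors. Lrrc32 was at 4.38 ± 0.232 and 5.15 ± 1.01 FPKM, and the chaperone gene Hsp90b1 at 214 ± 46.0 and 240 ± 27.1 FPKM, in knockout and wild type.

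NF-kB response cytokines and chemokines had 9 positive and 3 negative fold changes among 12 tested (median 0.19), and 5 further genes were too low to test. Tnf read 4.19, 6.07 and 2.56 FPKM in knockout replicates 1 to 3 and 2.70, 1.87 and 1.92 FPKM in wild-type replicates 1 to 3 (log2 fold change 0.69, SE 0.24). Cxcl5, a neutrophil-attracting chemokine, read 13.83, 4.05 and 2.43 FPKM in knockout and 2.12, 1.84 and 1.62 FPKM in wild type (log2 fold change 1.16, SE 0.46). Knockout replicate 1 was the highest library for Cxcl5. The sum of the 9 neutrophil markers in the table was 203.42, 226.44 and 173.2 FPKM in knockout and 239.37, 179.13 and 172.12 FPKM in wild type. Without Ly6g, the most abundant, it was 20.81, 9.11 and 6.58 FPKM in knockout and 6.54, 7.91 and 7.05 FPKM in wild type. S100a8 and S100a9 were highest there, at 6.04 and 6.55 FPKM in knockout replicate 1 and 0.77 to 1.99 FPKM in the other 5 libraries. The low genes Mmp9 (2.27 FPKM), Retnlg (0.56 FPKM) and Mmp8 (0.04 FPKM) were also highest in knockout replicate 1. Ly6g, Cxcr2, Csf3r and Camp were not, though Csf3r read 2.51 FPKM there against 2.58 FPKM in knockout replicate 2. The part of neutrophils in the chemokine values was not tested. Ccl5, a T cell chemokine, was at 7.42 ± 3.00 FPKM in knockout and 9.88 ± 1.06 FPKM in wild type. The type I interferon response list had 0 positive and 10 negative fold changes among 10 tested (median -0.38). Single libraries stood out in it, since Ifit1 read 27.40, 5.89 and 6.10 FPKM in knockout and 12.43, 42.46 and 11.01 FPKM in wild type, so knockout replicate 1 exceeded all but 1 wild type. Oasl2 was at 34.2 ± 23.2 and 44.8 ± 17.3 FPKM and Rsad2 at 4.50 ± 2.21 and 7.94 ± 6.12 FPKM in knockout and wild type.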

How the data were processed

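Poly-A RNA of 3 knockout and 3 wild-type distal colons was sequenced, and groups follow the genotype label, with replicate numbers from the sample titles. FPKM values of all 6 libraries, rounded to 2 decimals, were deposited in 1 table. The build mm39 and the tools HISAT2 and RSEM stand in the submitters' processing notes. Tool versions and filters are not given here by any source. The labels give no strand-marking step. The design text gives 3 mice per group, and p-values measure the spread between these samples.

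A gene was tested where 3 or more of the 6 libraries had at least 1 FPKM (13247 genes). Limma 3.58.1 in R 4.3.3 (lmFit, eBayes with trend, two-sided) was fitted to log2(FPKM + 1), with Benjamini-Hochberg adjustment over all of them and a threshold of 0.05. It was checked on simulated data in which genes with a mean above 5 FPKM changed 2-fold or more. That check does not cover lower genes or smaller changes. Counts were not analysed here, so no count model was run. Tables were made with Python 3.11.15, pandas 2.3.3 and numpy 2.4.6, and figures with matplotlib 3.10.9. The members, gene lists and tests were chosen with earlier results of these data known. Per-library values are given for the 12 tested members of smallest p and the most abundant member of each role, group means for other members at 1 FPKM or more, and up to 3 genes of each pathway list by smallest p. Genes given per library beyond this rule (Tlr6, Tlr8, Tlr9, Tlr13, Nlrc5, Ticam2) were chosen after their values were seen.

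Library depth came from 348 non-coding, short genes of 1 transcript, whose FPKM step by whole reads: with a length offset of 36 bases, 82.0% to 86.9% of 121 to 148 values per library lay within 0.05 of a whole read. Read numbers behind a gene are this depth times FPKM times the longest matched GENCODE M21 transcript, and are approximate. Shared 50-base words were counted against all GENCODE M21 transcripts, which are of GRCm38, not the authors' build. Alternatives covered the pseudocount, the filter on low values, rescaling, the model of the spread, a replicate block and each library left out.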

Additional observations from a re-analysis of the deposited data

How the results depend on the processing

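Under 17 alternatives no member and no pathway list gene was called in limma, and the smallest adjusted p of a member was 0.796, so the count of 0 called members did not depend on these settings. The median log2 fold change of the tested members stayed between -0.05 and 0.07. The number of genes called among all genes was 2, and it was 0 with a mean of at least 5 FPKM (316 at an unadjusted p under 0.05), 0 with the replicate block (504) and between 0 and 1 without any 1 library. Mlxipl lay between -0.60 and -0.30 and Tlr4 between 0.29 and 0.39 under all alternatives. Of 618 member values 44 changed sign, in 17 of 37 members, and the other 20 members kept theirs. Nlrp1b was 0.00056 with a pseudocount of 0.1. With libraries rescaled to the same total Tlr1 was -0.0094, Irak1 -0.015, Tlr3 -0.011 and Map3k7 -0.021, and by median of ratios Map3k7 was -0.0051. With array weights they were -0.053, -0.049, -0.12 and -0.0073, and Nlrp1a was -0.071. The cause was not tested. Members at an unadjusted p under 0.05 numbered 1 as reported, 4 with array weights (Irak2, Ly96, Tlr4, Tlr12), 2 with the replicate block (Irak2, Tlr4) and from 0 to 5 without 1 library. The 5, without knockout replicate 2, were Naip6, Nlrc4, Nlrx1, Tlr4 and Tlr12. Without 1 library Irak2 ranged from -0.33 to -0.16, Ly96 from 0.17 to 0.37, Tirap from -0.28 to -0.08, Tlr2 from 0.044 to 0.26, Nlrc4 from 0.13 to 0.38, Nlrx1 from 0.18 to 0.55, Tlr12 from -0.37 to -0.14 and Tlr5 from -0.34 to -0.10. Without 1 library the ranges that crossed 0 were -0.072 to 0.069 for Naip1, -0.11 to 0.10 for Tlr1, -0.12 to 0.10 for Irak1, -0.057 to 0.26 for Aim2, -0.014 to 0.10 for Myd88, -0.15 to 0.14 for Naip5, -0.026 to 0.39 for Nlrp9b, -0.13 to 0.15 for Tlr3, -0.027 to 0.049 for Map3k7, -0.072 to 0.025 for Traf6, -0.057 to 0.013 for Nod1, -0.21 to 0.11 for Nlrp1b, -0.12 to 0.087 for Irak3, -0.45 to 0.12 for Nlrc5, -0.34 to 0.10 for Tlr9, -0.013 to 0.27 for Nlrp1a and -0.19 to 0.075 for Nod2.

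The labels do not say whether the replicate numbers pair the samples. Deviations from the group means of same-numbered libraries correlated at 0.27, -0.096 and 0.063 over genes, and not every library correlated best with its own number. With 3 libraries per group these correlations cannot decide whether samples were paired. Members under about 100 reads per library, among them Tlr7, Tlr5 and Ticam2, are limited by depth.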

Other observations

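Among the neutrophil markers, Ly6g stood apart from the rest. It read 182.61, 217.33 and 166.62 FPKM in knockout replicates 1 to 3 and 232.83, 171.22 and 165.07 FPKM in wild-type replicates 1 to 3. The other 8 neutrophil markers in the table summed to 6.58 to 20.81 FPKM in knockout and 6.54 to 7.91 FPKM in wild type, with Camp at 0 to 0.30 FPKM and Mmp8 at 0 to 0.04 FPKM. A neutrophil score that includes Ly6g would therefore be set by that gene in this tissue.

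The mast cell list was likewise carried by Kit, at 10.01 to 12.89 FPKM in knockout and 10.61 to 11.79 FPKM in wild type, while Cpa3, Mcpt4, Tpsb2 and Fcer1a each lay below 1 FPKM. T cell markers had negative fold changes in 6 of 6 tested genes (median -0.19) and macrophage markers in 11 of 12 (median -0.14). Over all tested genes, 6261 of 13247 were negative. The other immune lists differed, with positive fold changes in 5 of 5 neutrophil, 4 of 6 B cell, 1 of 3 dendritic cell and 0 of 1 mast cell markers. No marker of these lists was called in limma.

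Chromosome 7 carries 10 of the 51 members, among them Nlrp6, Sigirr and Tollip, and the X chromosome carries 4, Irak1, Tlr7, Tlr8 and Tlr13. Xist was at 0.02 to 0.04 FPKM in knockout and 0.02 to 0.03 FPKM in wild type. The Y-linked gene Eif2s3y was at 23.28 to 28.23 FPKM in knockout and 24.78 to 30.75 FPKM in wild type, so every library of both genotypes carried Y-linked transcripts. Ddx3y, also Y-linked, was at 9.51 to 10.18 FPKM in knockout and 10.78 to 12.11 FPKM in wild type.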
